A study of Mus musculus with 9 samples.

Results

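Imprinted genes are transcribed mainly from the chromosome inherited from 1 of the 2 parents. The 35 imprinted genes described here were taken by name, out of 35498 genes in the tables, with earlier results of these data known. Their parental class was given from general knowledge and not from a measured value. By the parental allele that is generally given as active in mouse, 19 are paternally expressed and 11 maternally expressed. The other 5 (Grb10, Gnas, Blcap, H13 and Inpp5f) hold transcripts of different parental origin or switch allele between tissues. Imprinting of members outside these 5, such as Ube3a, can also depend on the tissue. Whether the classes hold in E13.5 cortex was not tested. Of the 35, 33 had enough counts to be tested, and these were 19 paternally expressed, 9 maternally expressed and 5 of the mixed class.

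The parental mark is DNA methylation laid down in the germ line at a control region, which then holds through the wave of demethylation after fertilisation. ZFP57, which binds the methylated motif TGCCGC, brings TRIM28 and the methyltransferase SETDB1 to these regions and keeps them methylated. In the developing forebrain, imprinted genes act on growth (Igf2, Igf2r, Grb10, Cdkn1c, Plagl1), on neuronal differentiation and survival (Ndn, Magel2, Nnat, Peg3) and on protein turnover in neurons (Ube3a). The RNA measured here is the total over both alleles of the inbred strain C57Bl/6, so the values do not tell the alleles apart.

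Whole cortical tissue was taken at E13.5 and made into 9 stranded mRNA libraries in 3 groups of 3. WT was Smarca1 +/+; Cre -/-. Smarca1 KO was Smarca1 -/-; Cre -/-. DKO, the Smarca5 and Smarca1 double knockout of the series' design text, was Smarca1 -/-; Cre +/-. Smarca5 and Smarca1 encode the motor subunits of ISWI complexes, which slide nucleosomes. The driver of the Cre, the exons it removes, the Smarca5 genotype of each group and whether the libraries of a group came from separate embryos were not given in the sources used here. For that reason p-values measure the spread between these libraries, which may be technical.

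Libraries held 27466046 to 46007527 counts. Levels are given as CPM (counts relative to the scaled total of the library) for 1 gene across libraries, and as TPM (per length) where genes are compared. Smarca5 RNA was 77.2 to 84.4 CPM in DKO, while the Smarca1 KO libraries held 212 to 246 CPM and those of WT 262 to 271 CPM. Smarca1 RNA was 35.3 to 43.8 CPM in all 9 libraries, so counts over the whole gene did not separate the groups labelled by Smarca1 genotype. Group names below are those of the labels. The Y-linked gene Ddx3y was at 56.3 to 70.6 CPM in every library. Marker genes of radial glia, intermediate progenitors and cortical neurons were detected in every library, together with markers of meninges, blood and other tissue. The libraries were of bulk tissue, in which fewer cells of a type and less RNA per cell cannot be told apart.

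RefSeq promoter windows on GRCm38.p6, from 250 bases before to 50 bases after a transcription start, were matched by symbol to 28 of the 35 genes, with 43 windows. The bases before the start are shown for 5 of the genes that changed and for Mest, in part for Plagl1. They read 5′ to 3′ on the strand of the gene, and capitals mark TGCCGC or, on the opposite strand, GCGGCA. Nap1l5 lies at chr6:58907127-58907376 (minus strand), Nnat at chr2:157559828-157560077 (plus strand), Zrsr1 at chr11:22971755-22972004 (plus strand), Plagl1 at chr10:13090582-13090690 (plus strand), Igf2r at chr17:12769707-12769956 (minus strand) and Mest at chr6:30737800-30738049 (plus strand). The Plagl1 stretch is cut to 109 bases because an annotated transcript begins there. These are the bases of its window farthest from the transcription start, and those next to the start are not shown.
Nap1l5: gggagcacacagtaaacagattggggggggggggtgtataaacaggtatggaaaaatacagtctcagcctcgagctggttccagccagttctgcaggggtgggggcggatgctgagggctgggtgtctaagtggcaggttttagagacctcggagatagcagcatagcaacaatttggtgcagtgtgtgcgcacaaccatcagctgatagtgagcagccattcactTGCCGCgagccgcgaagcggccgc
Nnat: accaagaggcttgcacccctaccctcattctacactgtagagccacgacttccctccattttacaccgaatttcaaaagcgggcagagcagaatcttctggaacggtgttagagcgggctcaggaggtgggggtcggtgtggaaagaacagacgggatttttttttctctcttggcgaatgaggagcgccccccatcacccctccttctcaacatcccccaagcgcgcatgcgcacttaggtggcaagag
Zrsr1: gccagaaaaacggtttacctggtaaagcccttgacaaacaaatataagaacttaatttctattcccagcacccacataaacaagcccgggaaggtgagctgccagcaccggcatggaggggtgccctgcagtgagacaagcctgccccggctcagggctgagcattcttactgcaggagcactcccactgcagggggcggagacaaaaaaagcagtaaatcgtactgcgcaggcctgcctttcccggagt
Plagl1: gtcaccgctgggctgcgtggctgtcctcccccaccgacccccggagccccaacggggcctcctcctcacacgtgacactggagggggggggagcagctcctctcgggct
Igf2r: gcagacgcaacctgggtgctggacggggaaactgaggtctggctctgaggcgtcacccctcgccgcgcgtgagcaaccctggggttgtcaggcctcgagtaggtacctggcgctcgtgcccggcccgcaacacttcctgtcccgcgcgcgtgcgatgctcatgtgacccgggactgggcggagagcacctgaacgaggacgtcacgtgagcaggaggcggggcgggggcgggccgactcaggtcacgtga
Mest: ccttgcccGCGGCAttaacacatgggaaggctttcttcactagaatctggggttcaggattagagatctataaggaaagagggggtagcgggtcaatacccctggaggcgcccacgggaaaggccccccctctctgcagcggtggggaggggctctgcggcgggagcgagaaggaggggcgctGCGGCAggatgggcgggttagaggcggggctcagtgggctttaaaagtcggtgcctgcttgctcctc
The motif occurs in the printed bases of Nap1l5 (1 match) and Mest (2 matches), and in those of none of the other 4. In the whole windows it occurs 2 times for Nap1l5 and 1 time each for Nnat and Plagl1, and not for Zrsr1 or Igf2r. Of the 43 windows, 11 (25.6%) held it, against 11.6% of all 32851 windows in the table. By class it was in 8 of 25 windows of paternally expressed genes, 2 of 9 of maternally expressed genes and 1 of 9 of the mixed class. Mest windows that begin at 30737800 and 30737803 overlap and both held it, so this promoter was counted 2 times. The windows of imprinted genes held a median of 16 CG dinucleotides and all windows a median of 7. The motif itself holds a CG, and windows of equal CG content were not compared. These are matches of letters and a description, not sites of binding. Which of the windows lie in a control region was not determined, so genes and classes are not compared at like regions.

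The imprinted genes spanned more than 4 orders of magnitude in TPM, averaged over the 9 libraries. Nnat, which encodes the small membrane protein neuronatin, was at 3934 TPM, above 99.9% of the genes tested. Gnas, which encodes the stimulatory G protein alpha subunit, followed at 1129 TPM. A group of 10 genes lay between 115 and 217 TPM. The upper 6 were Mest, a hydrolase of the alpha/beta fold (217 TPM), the cyclin-dependent kinase inhibitor Cdkn1c (179.6), the splicing protein gene Snrpn (175), the receptor adaptor Grb10 (171), Ndn (161) and the zinc finger factor Plagl1 (132). Close together below them came Blcap (120.5 TPM), the phosphoinositide phosphatase Inpp5f (118), the growth factor Igf2 (117.5) and H13 (115), which encodes signal peptide peptidase.

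A further 17 genes were at 13.3 to 56.2 TPM, from the Notch-ligand-like Dlk1 down to the ubiquitin ligase gene Mkrn3. Below them stood Rasgrf1, a Ras exchange factor, at 3.86 TPM. The potassium channel genes Kcnq1 (0.922 TPM) and Kcnk9 (0.716 TPM) and the calcitonin receptor Calcr (0.615 TPM) were the lowest of those tested. Slc22a18, with 3 to 11 counts in a library, and Phlda2, with 0 to 7 counts, did not reach the filter on low counts and were not tested. Neighbours in this order could overlap. In WT, Blcap (112.5 ± 1.36 TPM), Igf2 (115 ± 9.21 TPM) and H13 (114 ± 1.04 TPM) lay within 1 SD of Igf2, and Inpp5f was at 105 ± 2.93 TPM (SD, n = 3).

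**Figure D1:**
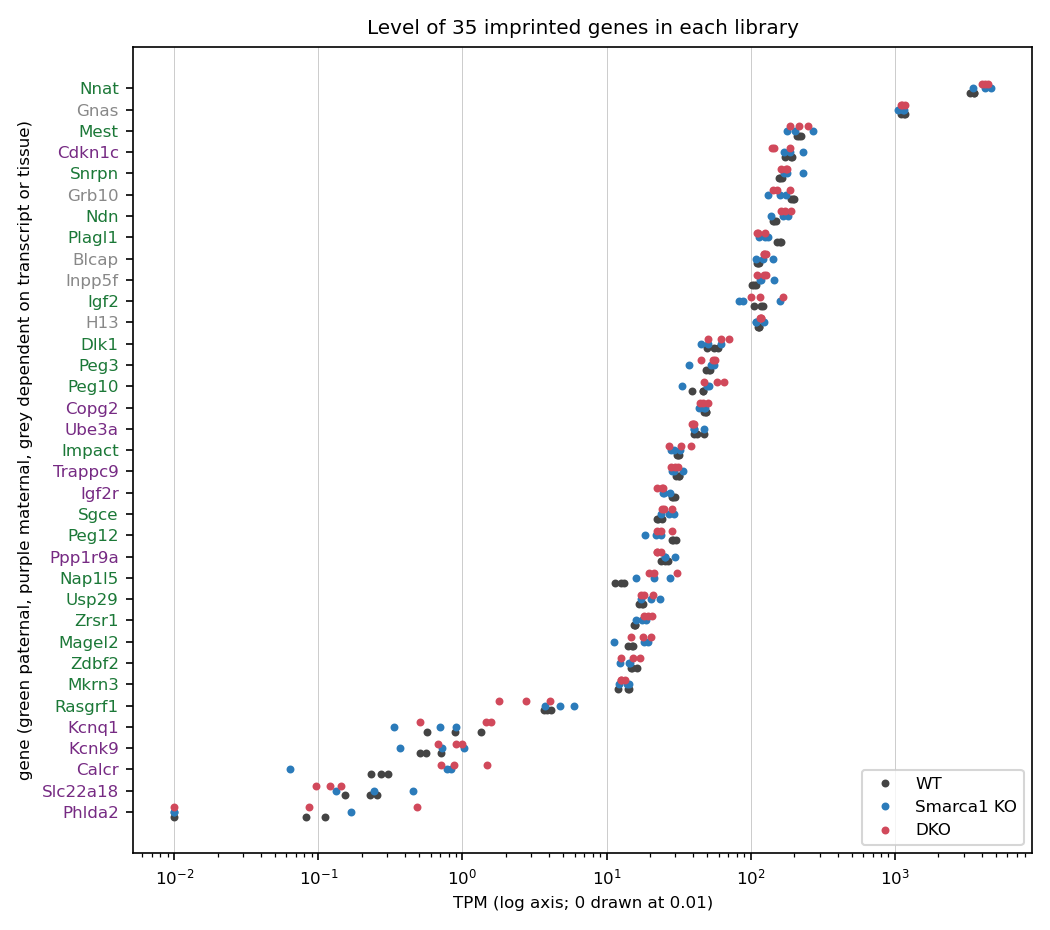
Each point is the TPM (log axis) of 1 imprinted gene in 1 of the 9 libraries, with genes ordered by their mean and named in green (paternally expressed), purple (maternally expressed) or grey (mixed). Nnat stands at 3302 to 4654 TPM and Phlda2 at 0 to 0.486 TPM, while neighbours such as Peg10, Peg3 and Dlk1 overlap.

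The 3 comparisons share libraries, so their results are not independent. DKO was compared with WT to see both genotype differences together. Of the 33 imprinted genes tested, 4 rose (12.1%, against 5.61% of all 15773 genes tested) and 2 fell (6.06%, against 6.35%). The 6 genes called in all are 18.2% of those tested, against 12% of all genes. The genes were chosen with earlier results of these data known, so their shares, here and below, do not measure imprinted genes in general. Calls were made where edgeR's quasi-likelihood test, adjusted over all genes, gave a p under 0.05. All 4 that rose, Nap1l5, Nnat, Ndn and Zrsr1, are classed as paternally expressed. Of the 2 that fell, Igf2r is classed as maternally and Plagl1 as paternally expressed.

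Nap1l5 is an intronless gene of the nucleosome assembly protein family (ENSMUSG00000055430.4, GRCm38 chromosome 6, 58905233 to 58907076, minus strand) that lies inside an intron of Herc3. It was at 11.2, 9.88 and 10.9 CPM in WT, 18.1, 13.8 and 23.6 CPM in Smarca1 KO, with 17.0, 25.2 and 18.2 CPM in the DKO libraries. All 6 knockout libraries stood above the 3 WT libraries, and the 2 knockout groups overlapped. Against WT, the log2 fold change in DKO was 0.91 (SE 0.20, adjusted p = 0.0209). This was a rise of 87.7%, the largest among the called imprinted genes.

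Nnat (ENSMUSG00000067786.16, chromosome 2, 157560078 to 157562522, plus strand) lies in an intron of Blcap. It was at 1709, 1602 and 1703 CPM in WT, 2034, 1719 and 2227 CPM in Smarca1 KO, with 2087, 2164 and 1967 CPM in the DKO libraries. The DKO libraries were all above the WT libraries, and the Smarca1 KO libraries were spread from just above WT to above DKO. The log2 fold change in DKO against WT was 0.31 (SE 0.082, adjusted p = 0.0396), a rise of 24.0%.

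Ndn, which encodes necdin, a MAGE family protein of postmitotic neurons (ENSMUSG00000033585.5, chromosome 7, 62346569 to 62350262, plus strand), was at 277, 265 and 272 CPM in WT. Its values were 316, 270 and 332 CPM in Smarca1 KO, with 326, 353 and 305.5 CPM in the DKO libraries. Library 2 of Smarca1 KO lay among the WT libraries, and no DKO library did. The log2 fold change in DKO against WT was 0.28 (SE 0.077, adjusted p = 0.0474).

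Zrsr1, an intronless copy of a splicing factor gene that lies in an intron of Commd1 (ENSMUSG00000044068.7, chromosome 11, 22972005 to 22976496, plus strand), was at 16.1, 15.4 and 15.0 CPM in WT. Smarca1 KO libraries held 15.8, 16.2 and 17.9 CPM and DKO libraries 18.0, 19.3 and 19.6 CPM. DKO was above every other library. The log2 fold change in DKO against WT was 0.29 (SE 0.072, adjusted p = 0.0317). Of the 31-base stretches of the Zrsr1 transcripts, 8.19% also occur in other genes, mostly Commd1, so a part of its count rests on how shared reads were divided.

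Plagl1, a zinc finger transcription factor that restrains proliferation (ENSMUSG00000019817.18, chromosome 10, 13060504 to 13131694, plus strand), was at 269.5, 279.5 and 276 CPM in WT. It was at 247, 239.9 and 203 CPM in Smarca1 KO, with 233, 204.8 and 210.2 CPM in the DKO libraries. Both knockout groups lay wholly below WT and overlapped each other. In DKO against WT it fell by 0.35 on the log2 scale (SE 0.074, adjusted p = 0.0194).

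Igf2r, the receptor that takes IGF2 up for degradation and sorts lysosomal enzymes (ENSMUSG00000023830.14, chromosome 17, 12682406 to 12769664, minus strand), was at 142, 138 and 138 CPM in WT. Values were 131.5, 123 and 120.5 CPM in Smarca1 KO, with 121, 117 and 109 CPM in the DKO libraries. WT lay above all 6 knockout libraries, and the Smarca1 KO and DKO ranges overlapped between 120.5 and 121 CPM. In DKO against WT it fell by 0.27 on the log2 scale (SE 0.049, adjusted p = 0.0118), the smallest p of the 33.

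**Figure D2:**
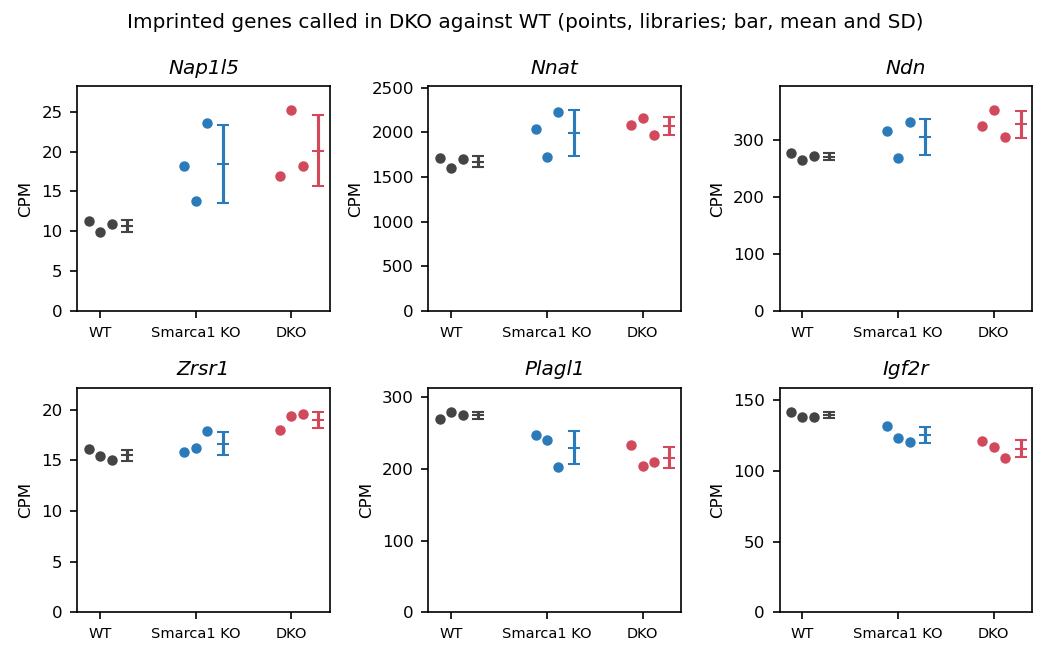
CPM (vertical axis, from 0) of the 6 imprinted genes called in DKO against WT, with 1 point per library and a bar for the mean and SD of each group of 3 (horizontal axis, the 3 groups). Nap1l5 WT libraries stand at 9.88 to 11.2 CPM below all 6 knockout libraries, Igf2r and Plagl1 WT libraries stand above them, and Zrsr1 is highest in DKO.

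These calls rested on few libraries. Without WT replicate 1, 0 of the 33 genes were called by edgeR (8 at an unadjusted p under 0.05, adjusted p of Igf2r 0.0527), against 2.82% of all genes. Igf2r alone (3.03%) was called without DKO replicate 2, DKO replicate 3, WT replicate 2 or WT replicate 3. In that order, 4.45%, 3.41%, 3.37% and 3.24% of all genes were called. The share of all genes was 12% in the main fit, so calls fell for genes in general in these fits. With the summed level of 4 Y-linked genes as a covariate, of whose variance the groups took up 0.809 (R2), 0 of 33 imprinted genes (1 at an unadjusted p under 0.05) and 4 of 15773 genes in all were called. Of the 6, 4 were called with effective-length offsets (2 up, 2 down), or 12.1% of the imprinted genes against 8% of all genes. In the fit without Smarca1 KO replicate 1 and DKO replicate 1, 7 imprinted genes were called (2 up, 5 down), or 21.2% against 17.6% of all genes. Those were Nap1l5 and Zrsr1, higher in DKO, and Plagl1, Igf2r, Cdkn1c, Grb10 and Peg12, lower in DKO. Without Smarca1 KO replicate 2, 8 were called (24.2%, against 13.4% of all genes), the 6 with Blcap and Calcr. DESeq2 also called 8 (24.2%, against 18.2% of all genes), the 6 with Calcr and Ube3a. The direction of each of the 6 held in all 18 alternatives. For each of them the DKO and WT libraries did not overlap, so leaving out libraries could hardly reverse it.

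Marker lists of other cells moved in the same comparison. Of 9 ventral telencephalon markers, 3 rose (Dlx1, Dlx5 and Slc32a1), and their sum was 807.5 to 946 CPM in WT and 968 to 1173 CPM in DKO. Of 12 radial glia markers, 5 fell and 2 rose, with a sum of 3050 to 3147 CPM in WT and 2642 to 2939 CPM in DKO. Of 8 microglia markers, 3 rose, with a sum of 36.3 to 38.5 CPM in WT and 49.0 to 61.4 CPM in DKO. In the order given, 33.3%, 58.3% and 37.5% of the markers tested were called, against 12% of all genes. No gene of these 3 lists was at 0 in any library. The part of these cells in the differences of the imprinted genes was not tested.

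Among the 19 paternally expressed genes, 14 were not called in DKO against WT. The median log2 fold change of the 19 was 0.14, of the 9 maternally expressed genes −0.077, of the 5 mixed genes 0.022 and of all genes 0.0078. Of the 19, 13 had a positive and 6 a negative fold change, and of the 9, 3 and 6. Groups did not overlap for 14 of the 33 genes (42.4%, against 41.3% of all genes). This share is near that of all genes.

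Of the uncalled paternally expressed genes, the retrotransposon-derived Peg10 had the highest fold change. It was at 163, 138 and 166 CPM in WT, 184, 122.5 and 173 CPM in Smarca1 KO, with 208, 232 and 169 CPM in the DKO libraries (log2 fold change in DKO against WT 0.38, SE 0.16, adjusted p = 0.132). The DKO libraries lay above those of WT, with a narrow gap between the nearest. The neighbouring Sgce, which encodes epsilon-sarcoglycan, had 18.9 to 19.8 CPM in WT and 19.8 to 23.4 CPM in DKO. Rasgrf1 and Peg12 had negative fold changes (−0.35 and −0.23), and the remaining 10 uncalled paternally expressed genes lay between −0.072 (Impact) and 0.26 (Magel2).

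Snrpn and Mest belong to the most abundant members and did not pass the test. Snrpn was at 152.5, 148 and 151 CPM in WT, 169, 167 and 214 CPM in Smarca1 KO, with 153, 167 and 165 CPM in the DKO libraries, with a log2 fold change against WT of 0.10 for DKO (SE 0.086, adjusted p = 0.454) and of 0.28 for Smarca1 KO (SE 0.086, adjusted p = 0.155). The 3 WT libraries were the lowest of the 9, and Smarca1 KO replicate 3 was the highest. Of its 31-base stretches, 34.5% occur in other genes, mostly the predicted gene Gm38393. Mest was at 269, 263 and 284.5 CPM in WT, 335, 234 and 251 CPM in Smarca1 KO, with 316, 271 and 238 CPM in the DKO libraries, and its log2 fold change in DKO against WT was 0.015 (SE 0.13, adjusted p = 0.955). The WT range of Mest lay inside those of the other groups. Mest shares 22% of its 31-base stretches with Copg2, a member classed as maternally expressed, and Copg2 shares 16.9% of its own with Mest. The counts of both thus depend on how reads were divided.

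Of the 9 maternally expressed genes, Igf2r was the 1 called in DKO against WT. Calcr had the highest fold change of all members, at a low level. It was at 0.487, 0.381 and 0.458 CPM in WT, 1.27, 0.0682 and 1.60 CPM in Smarca1 KO, with 1.43, 2.30 and 1.39 CPM in the DKO libraries (log2 fold change in DKO against WT 1.92, SE 0.68, adjusted p = 0.089). DKO lay wholly above WT, while Smarca1 KO held both a library below all WT libraries and others above them.

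Cdkn1c, which brings cells out of the cell cycle, was at 130.2, 122 and 116 CPM in WT, 152, 115 and 117 CPM in Smarca1 KO, with 125, 93.0 and 89.0 CPM in the DKO libraries. The 2 lowest libraries were DKO 2 and 3, and DKO 1 lay within the WT range. The log2 fold change in DKO against WT was −0.26 (SE 0.14, adjusted p = 0.232). Ube3a, the ubiquitin ligase whose paternal copy is silent in mature neurons, was at 172.5 to 184.9 CPM in WT and 166.5 to 167.5 CPM in DKO (log2 fold change −0.10, SE 0.037, adjusted p = 0.102). The other maternally expressed genes tested (Copg2, Trappc9, Ppp1r9a, Kcnk9 and Kcnq1) lay between −0.13 and 0.54.

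In the mixed class edgeR and DESeq2 both called 0 of 5 in DKO against WT, and 2 (Blcap and Inpp5f) had an unadjusted p under 0.05. Gnas was at 978, 937 and 1001 CPM in WT, 977, 917 and 964 CPM in Smarca1 KO, with 973, 1004 and 937 CPM in the DKO libraries. The 3 groups covered nearly the same range, and the log2 fold change in DKO against WT was −0.0012 (SE 0.043, adjusted p = 0.989). Of the 31-base stretches of Gnas, 11.7% occur in other genes, mostly Gm20721. Grb10, an adaptor that limits growth when read from the maternal allele and is paternally expressed in neurons, was at 523, 504 and 523 CPM in WT, 468.5, 432 and 339 CPM in Smarca1 KO, with 499, 405 and 377 CPM in the DKO libraries. All 6 knockout libraries were below WT. Its log2 fold changes against WT were −0.28 in DKO (SE 0.12, adjusted p = 0.162) and −0.32 in Smarca1 KO (SE 0.12, adjusted p = 0.22). Blcap was at 88.8 to 92.5 CPM in WT, 95.9 to 110.5 CPM in Smarca1 KO, with 101 to 102 CPM in the DKO libraries, and H13 at 131.5 to 151 CPM over all 9.

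The comparison of Smarca1 KO with WT, without Cre, uses the same WT libraries. In it edgeR called 0 of 33 imprinted genes (0.336% of all genes were called, 0.139% higher and 0.197% lower), 12 were at an unadjusted p under 0.05 (36.4%, against 18.9% of all genes), and 4 passed in DESeq2 (12.1%, against 4.61%). These 4 were Nap1l5, Blcap, Plagl1 and Peg12. Nap1l5 had the smallest p, at 0.79 on the log2 scale (SE 0.20, adjusted p = 0.128), on the values given above. Peg12, an intronless gene of the Snrpn cluster that is related to Frat1, was at 37.0, 37.4 and 40.2 CPM in WT and 31.2, 29.5 and 23.9 CPM in Smarca1 KO (−0.43 on the log2 scale, SE 0.12, adjusted p = 0.138). No Smarca1 KO library reached the WT range.

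Groups did not overlap for 12 of the 33 genes in Smarca1 KO against WT (36.4%, against 26.1% of all genes). Of these, 8 were higher in Smarca1 KO (Nap1l5, Nnat, Snrpn, Usp29, Sgce, Rasgrf1, Blcap and Inpp5f) and 4 lower (Plagl1, Peg12, Igf2r and Grb10). The median log2 fold change was 0.038 over the 19 paternally expressed genes, 0.065 over the 9 maternally expressed genes and 0.01 over all genes. Without Smarca1 KO replicate 2, Nnat was called in this comparison, as 1 of 33 (3.03%, against 0.436% of all genes). Without Smarca1 KO replicate 1 and DKO replicate 1, 4 genes were called (12.1%, against 3.83% of all genes), all lower in Smarca1 KO (Grb10, Igf2, Peg12 and Plagl1).

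Both groups in the comparison of DKO with Smarca1 KO carry the Smarca1 -/- genotype, so that they differ in the Cre and in Smarca5 RNA. Here edgeR called 0 of 33 imprinted genes (4.39% of all genes were called, 1.73% higher and 2.66% lower), 6 were at an unadjusted p under 0.05 (18.2%, against 18.4% of all genes), and Ppp1r9a and Rasgrf1 passed in DESeq2 (6.06%, against 7.5%). Neither share is above that of all genes. The smallest p was that of Ppp1r9a, which encodes neurabin, an actin-binding scaffold of protein phosphatase 1. Ppp1r9a was at 127, 127 and 146.5 CPM in Smarca1 KO, and DKO held 112.5, 117.5 and 109.6 CPM, with 129, 117 and 124 CPM in WT. DKO lay below Smarca1 KO without overlap, while its highest library stood level with the lowest of WT. The difference between these groups was −0.24 on the log2 scale (SE 0.063, adjusted p = 0.0657).

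Rasgrf1 was at 8.73, 10.8 and 12.7 CPM in Smarca1 KO, and DKO held 3.42, 8.52 and 6.21 CPM, with 7.81, 7.59 and 7.65 CPM in WT (−0.83 on the log2 scale between DKO and Smarca1 KO, SE 0.27, adjusted p = 0.129). The WT libraries lay below all Smarca1 KO libraries and inside the DKO range. Groups did not overlap for 5 of 33 genes (15.2%, against 20.5% of all genes), with Zrsr1 higher in DKO and Ppp1r9a, Rasgrf1, Snrpn and Ube3a lower. The medians were 0.08 for paternally and −0.041 for maternally expressed genes, and 0.0041 for all genes. Without Smarca1 KO replicate 1 and DKO replicate 1, Cdkn1c was called as lower and Igf2 as higher in DKO (6.06% of the 33, against 2.51% of all genes).

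**Figure D3:**
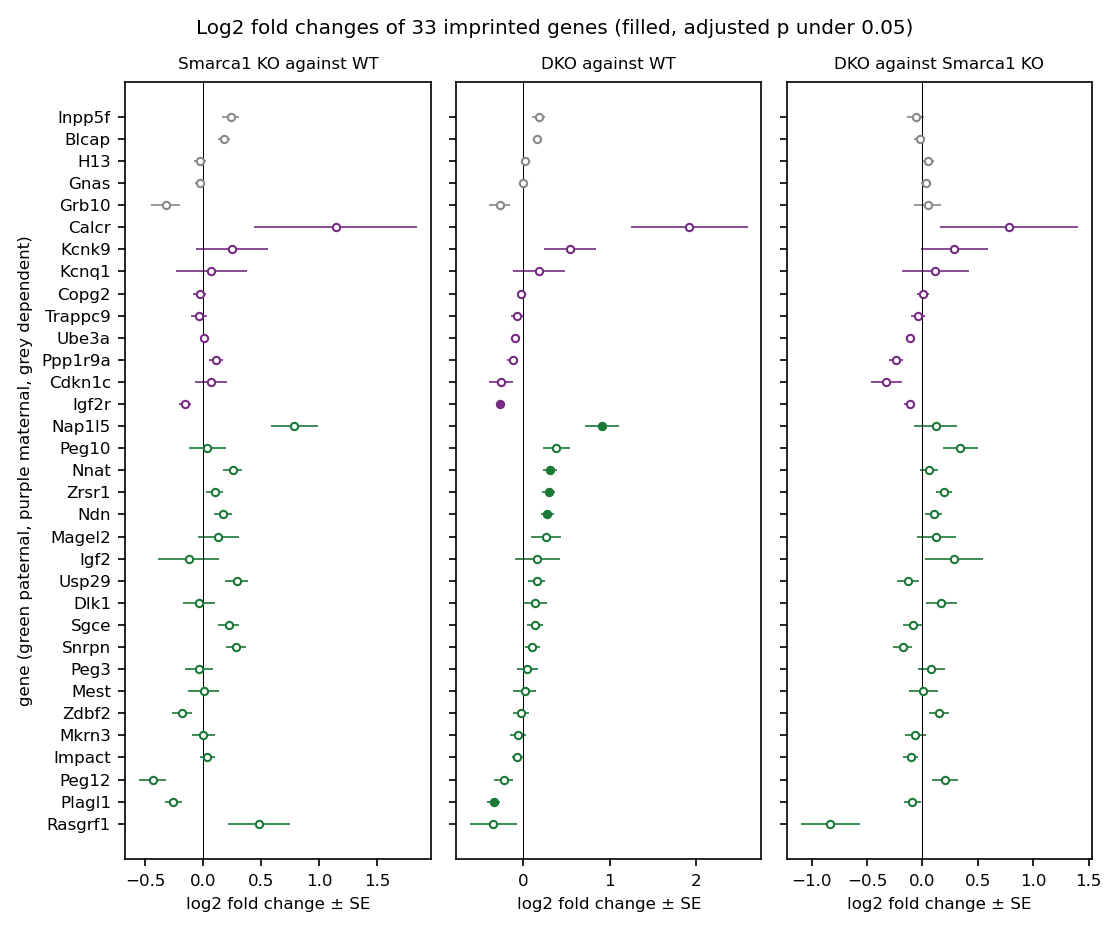
Log2 fold change with its SE (horizontal axes, 1 panel per comparison) of the 33 imprinted genes tested, in green (paternally expressed), purple (maternally expressed) or grey (mixed), with filled points for an adjusted p under 0.05. The filled points are the 6 genes called in DKO against WT, and the widest bars are those of Calcr.

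Several imprinted genes varied between libraries of 1 group. The coefficient of variation had a median of 3.6% over the 33 genes in WT, 12.9% in Smarca1 KO and 8.48% in DKO. Over all genes tested the medians were 4.64%, 9.01% and 7.2%. Smarca1 KO replicate 2 held the lowest value of the 9 libraries for 10 of the 33 genes, namely Peg3, Peg10, Mest, Dlk1, Magel2, Zdbf2, Gnas, Kcnq1, Kcnk9 and Calcr. Of all genes, 10.6% had their lowest value there. Smarca1 KO replicate 3 held the highest value for 10 imprinted genes, against 17.9% of all genes. WT replicate 2 held the lowest value for 8 (11.2% of all genes), among them Nap1l5, Nnat and Ndn, and DKO replicate 2 the highest for 8 (9.52% of all genes). The ventral telencephalon sum was likewise lowest in WT replicate 2 (807.5 CPM) and highest in DKO replicate 2 (1173 CPM), and its part in these values was not tested.

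Smarca1 KO replicate 2 also stood apart in some diencephalon markers. The hypothalamic transcription factor Otp was at 0 CPM there, against 3.74 and 8.05 CPM in the other libraries of the group, 2.01 to 2.39 CPM in WT and 3.55 to 8.45 CPM in DKO. Sim1 was at 0.0682 CPM there and at 1.24 to 4.53 CPM in the other 8 libraries. The sum of 9 diencephalon markers was 42.5 CPM in that library, 63.2 and 67.4 CPM in the other libraries of its group, 56.5 to 62.6 CPM in WT and 52.8 to 71.9 CPM in DKO, and Olig3 was also at 0 in it. Lhx9 (26.7 CPM) and Tcf7l2 (12.1 CPM) had their lowest values there too. The remaining 4 markers did not, with Gbx2 at 2.12 CPM (0.74 to 3.83 CPM over the other 8 libraries), Foxb1 at 0.273 CPM (0.104 to 0.282 CPM) and Irx1 and Irx3 inside the range of the others. Magel2, a MAGE family gene strongly expressed in the hypothalamus, was at 28.3 CPM in that library and at 34.8 to 50.1 CPM in the other 8. The part of diencephalic tissue in the values of Calcr, Magel2, Peg10 and Kcnk9 was not tested.

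Igf2, the fetal growth factor, is made by meninges and vessels as well as choroid plexus. It was at 186, 188 and 164 CPM in WT, 243, 128 and 123 CPM in Smarca1 KO, with 266, 177 and 158 CPM in the DKO libraries. Replicate 1 of each knockout group was higher than all other libraries. The sum of 13 meninges and mesenchyme markers was 558, 590 and 496 CPM in WT, 680, 307 and 309.8 CPM in Smarca1 KO, with 740, 336.5 and 309 CPM in the DKO libraries, with none of the 13 at 0 in any library. Mest and Cdkn1c were also highest in replicate 1 within each knockout group. The sum of 8 endothelium markers was also highest in replicate 1 of Smarca1 KO (303 CPM) and of DKO (273 CPM). WT held 234 to 251 CPM. The sum of 9 cortical hem and choroid plexus markers was highest in DKO replicate 1 (590 CPM), with 506 CPM in DKO replicate 3. In Smarca1 KO it was 413 CPM in replicate 1 and 406 CPM in replicate 3. The part of meninges, vessels or choroid plexus in these values was not tested. Igf2 shares 61.9% of its 31-base stretches with Gm49394, an overlapping model, so its counts depend on how reads were divided.

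**Figure D4:**
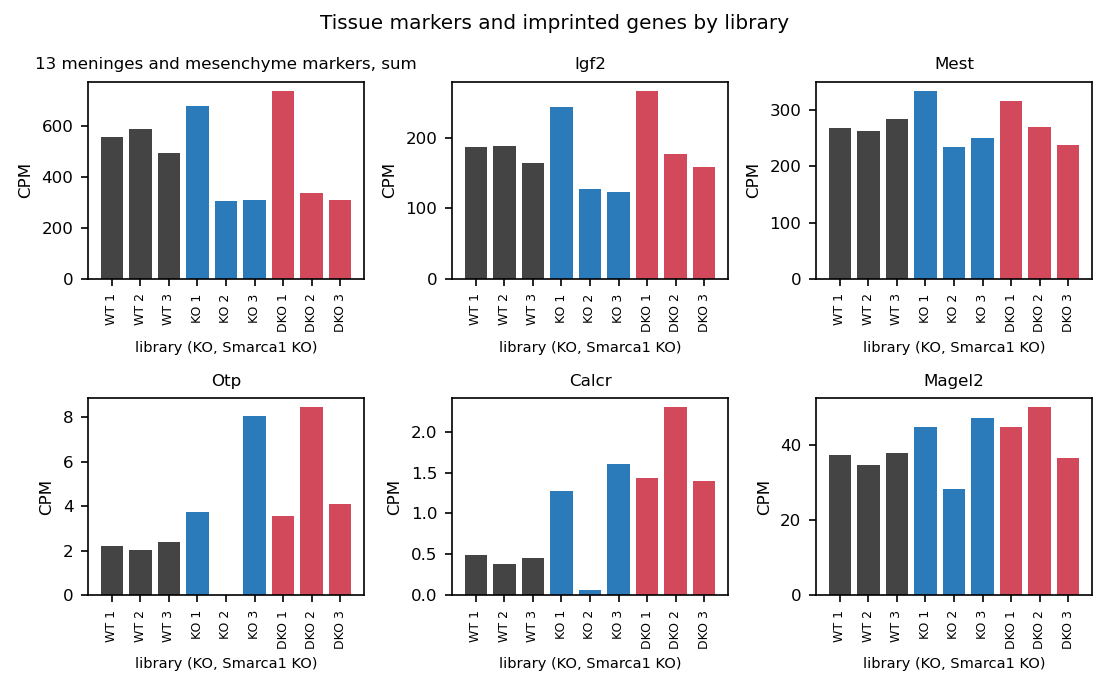
CPM (vertical axes, from 0) in each of the 9 libraries (horizontal axes, KO for Smarca1 KO) of the summed meninges markers, Igf2, Mest, the hypothalamic marker Otp, Calcr and Magel2. Igf2 and Mest are highest in replicate 1 of Smarca1 KO and DKO, where the meninges sum is 680 and 740 CPM, and Otp, Calcr and Magel2 are lowest in Smarca1 KO replicate 2.

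Several of these genes use more than 1 start or end, and the parental origin can depend on which is used. Of 50753 transcripts tested, 136 belonged to 33 of the imprinted genes. In edgeR 0 of them were called in any comparison, with 6, 17 and 15 at an unadjusted p under 0.05 for DKO against Smarca1 KO, then DKO against WT, then Smarca1 KO against WT. In that order, the shares of all transcripts called were 0.132%, 0.327% and 0.0296%. DESeq2 called 0, 7 and 4 of the 136, where it called 2.09%, 4.12% and 1.49% of all transcripts. Reads of transcripts of 1 gene are divided by estimation, so levels below are estimates.

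At Gnas, the Gs-alpha start, which is biallelic in most tissues, carried 94.4% to 96.1% of the gene's TPM. The maternally expressed Nesp start was at 4.54 to 9.20 TPM, the paternally expressed Gnasxl start at 1.24 to 2.31 TPM and the paternally expressed exon 1A start at 23.9 to 46 TPM. At Grb10, 90.1% to 95.4% of the TPM came from the upstream start and 1.47% to 6.26% from the downstream starts. Mest was read almost wholly from its downstream starts (97.9% to 99.0%). At H13, the ratio of transcripts that end early to those that end late was 0.475 ± 0.0236 in WT, 0.479 ± 0.0311 in Smarca1 KO and 0.455 ± 0.0334 in DKO (SD, n = 3, exact permutation p of 0.5 to 0.9, two-sided).

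Nnat has a main transcript with a middle exon (Nnat-202) and one without it (Nnat-205). The ratio of Nnat-205 to Nnat-202, in TPM, was 0.568, 0.566 and 0.535 in WT, 0.602, 0.663 and 0.716 in Smarca1 KO and 0.694, 0.725 and 0.821 in DKO. WT lay below both knockout groups, which overlapped. An exact permutation test over 3 against 3 libraries (two-sided) gave p = 0.1 for each knockout group against WT, the smallest p it allows (Benjamini-Hochberg 0.225 over 9 tests), and p = 0.2 between the knockout groups. Tested alone, Nnat-205 rose by 0.60 on the log2 scale in DKO against WT (edgeR adjusted p = 0.0827, DESeq2 adjusted p = 3.75e-06). In Smarca1 KO against WT it rose by 0.42 (edgeR adjusted p = 0.38, DESeq2 adjusted p = 0.0096). For Nnat-202 the values were 0.18 in DKO (edgeR 0.526, DESeq2 0.371) and 0.17 in Smarca1 KO (edgeR 0.661, DESeq2 0.607). The Nnat transcripts were singled out after their values had been seen.

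Inpp5f has a paternally expressed transcript that starts within an intron near its 3′ end, beside the full-length transcripts. The ratio of the intronic to the full-length starts was 7.11, 7.25 and 7.38 in WT, 9.71, 9.10 and 9.28 in Smarca1 KO and 7.80, 9.01 and 10.1 in DKO. WT again lay below all 6 knockout libraries. The exact permutation p was 0.1 against WT in each case, and 0.7 between the knockout groups. The intronic start was at 81.9 ± 0.262 TPM in WT, 102 ± 17.3 TPM in Smarca1 KO and 98.0 ± 10.2 TPM in DKO, and the full-length start at 11.3 ± 0.246, 10.9 ± 1.91 and 11 ± 0.698 TPM (SD, n = 3).

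**Figure D5:**
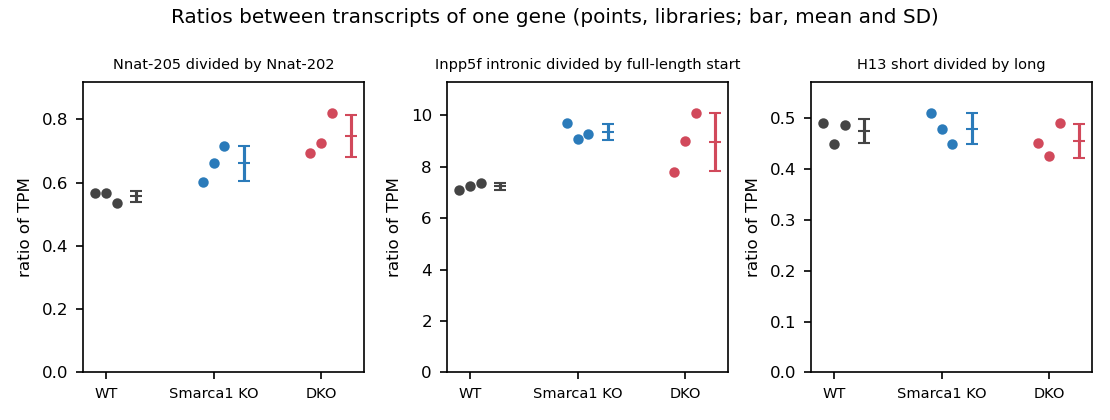
Ratio of TPM between transcripts of 1 gene (vertical axes, from 0) for Nnat, Inpp5f and H13, with 1 point per library and a bar for the mean and SD of each group of 3. The WT libraries stand at 0.535 to 0.568 for Nnat and at 7.11 to 7.38 for Inpp5f, below all 6 knockout libraries, and the H13 groups overlap.

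Of 30 genes that set or keep imprints, 28 were tested. In DKO against WT, 6 fell by 0.14 to 0.34 on the log2 scale and 0 rose, with a median of −0.14 over the 28. The share that fell was 21.4%, against 6.35% of all genes. They were Trim28 (692 CPM in WT and 590 CPM in DKO on average), the Polycomb subunit Suz12 (193.6 and 153 CPM), the DNA methyltransferase Dnmt3a (263 and 229.5 CPM), Setdb1 (159 and 144 CPM), and Atrx and Daxx, which together place histone H3.3. Trim28 fell by 0.23 on the log2 scale (SE 0.046, adjusted p = 0.0149) and Suz12 by 0.34 (SE 0.077, adjusted p = 0.0235). DESeq2 called 11 of the 28 there (39.3%, against 18.2% of all genes). Of 12 radial glia markers, 5 fell and 2 rose in the same comparison, with a median of −0.27, and their part in the regulators' values was not tested. In Smarca1 KO against WT edgeR called 0. There 14 of 28 were at an unadjusted p under 0.05 (18.9% of all genes), and DESeq2 called 6 (21.4%, against 4.61%). In DKO against Smarca1 KO edgeR called 0, with 6 at an unadjusted p under 0.05 (18.4% of all genes) and 1 by DESeq2 (3.57%, against 7.5%). Trim28 (554 to 616 CPM in Smarca1 KO, 583.5 to 594 CPM in DKO), Suz12 and Dnmt3a overlapped between the knockout groups. Setdb1, Atrx and Daxx did not, with DKO lower. All of these were taken from the genes called as lower in the same DKO libraries. Of all genes, 20.5% did not overlap in this comparison, and the share over the 28 was not counted. The summed level of the list was 6388 to 6499 CPM in WT, 5764 to 6191 CPM in Smarca1 KO, with 5799 to 5894 CPM in the DKO libraries.

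Of 59 further imprinted genes, 50 were in the tables and 39 were tested. Those absent include the long non-coding RNAs Meg3, Rian, Mirg, H19, Airn, Kcnq1ot1 and Peg13, which were thus not measured. Only 24 of the 35498 genes in the tables were long non-coding RNA genes. In DKO against WT 3 rose and 2 fell (12.8%), a share near the 12% of all genes. Dio3, the deiodinase that inactivates thyroid hormone, was at 2.77 CPM in WT and 5.70 CPM in DKO on average (log2 fold change 1.03, SE 0.27, adjusted p = 0.0385). The carboxypeptidase Cpa4 (0.65) and the matrix protein Smoc1 (0.34) also rose, and the cholesterol synthesis enzyme Dhcr7 (−0.21) and the Argonaute Ago2 (−0.17) fell. In DKO against Smarca1 KO Osbpl5, a lipid transfer protein, fell (−0.40, SE 0.079, adjusted p = 0.0234), the only call there (2.56%, against 4.39% of all genes). For Smarca1 KO against WT edgeR called 0 of 39. There 9 were at an unadjusted p under 0.05 (18.9% of all genes), and DESeq2 called 3 (7.69%, against 4.61%).

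Genes beside the imprinted genes were taken as the 142 protein-coding genes tested within 500 kb of a member and in neither imprinted list. In DKO against WT 5 rose and 8 fell (9.15%, against 12% of all genes). Among those that fell was Gm38393, whose count is not independent of Snrpn because they share stretches. In Smarca1 KO against WT edgeR called 0. There 21 of the 142 were at an unadjusted p under 0.05 (18.9% of all genes) and DESeq2 called 3 (4.61% of all genes). In DKO against Smarca1 KO, 6 were called (4.23%, against 4.39%). The lysosomal protease gene Ctsd, near Igf2, rose by 0.40 on the log2 scale. Npepl1 (−0.46) and Ctsz (−0.28) near Gnas, Pnldc1 (−1.0) and Acat2 (−0.23) near Igf2r, and Adamts7 (−0.21) near Rasgrf1 fell. These shares lie at or below those of all genes.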

How the data were processed

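RNA of E13.5 mouse cortex was measured in 9 libraries (3 WT, 3 Smarca1 KO and 3 DKO). The authors quantified transcripts with Salmon 1.4.0 and name the build mm10, per the submitters' processing notes. DESeq2 is named there with no role. The deposited tables give estimated counts and TPM per transcript, per the file headers. The index, annotation release and library-type setting were not given in the sources used here. Whether counting used strand is thus unknown, and overlapping or antisense genes may share reads. Here 115977 of 116546 transcripts were matched to GENCODE M21 (GRCm38), and the rest held 0.104% to 0.116% of reads. Estimated counts were summed to 35498 genes and rounded. Totals of 27466046 to 46007527 counts set the precision.

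The main test was edgeR 4.0.16 (limma 3.58.1, R 4.3.3): TMM, filterByExpr (15773 genes), 1 quasi-likelihood fit over 9 libraries with group means, and Benjamini-Hochberg adjustment over all genes tested, with calls at an adjusted p under 0.05. The SE of a log2 fold change is its size over the square root of F. Transcripts were tested likewise. The script was tested on simulated data. Alternatives were other scalings, no filter, DESeq2 1.42.0, 2-group fits, effective-length offsets, a replicate block, a Y-linked covariate and leaving out libraries. Those for transcripts were chosen after seeing the data.

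The members, gene lists and tests were chosen with earlier results of these data known. Members were given in full if called in a comparison, if among the 5 of highest TPM of the rest, or if of smallest p in a comparison. Other members with values were chosen after these were seen. Lists called in DKO against WT but not described are those of intermediate progenitors (3 of 8 fell), cortical neurons (1 of 10 rose, 1 fell), cortical hem and choroid plexus (1 of 9 rose) and blood (1 of 9 fell). Their shares called were 37.5%, 20%, 11.1% and 11.1%, against 12% of all genes. For meninges, endothelium, pericytes and diencephalon edgeR and DESeq2 called 0, with 0 at an unadjusted p under 0.05 in edgeR.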

Additional observations from a re-analysis of the deposited data

How the results depend on the processing

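Over the 99 pairs of gene and comparison, 1782 alternative values were computed. Of these, 1711 kept their side of the threshold, 41 lost a call, 30 gained one and 0 reversed a call, while 93 of 1674 values of uncalled pairs changed sign. The groups of each called pair did not overlap, so leaving out libraries could hardly reverse a call. In DKO against Smarca1 KO, where 0 imprinted genes were called, DESeq2 called 2, the fit with a replicate block 1 (Cdkn1c) and the fit without the libraries highest in meninges markers (Smarca1 KO replicate 1 and DKO replicate 1) 2. Leaving out 1 library in turn gave 0 to 0. In DKO against WT, with 6 called, the fit of only the 2 groups called 10 (30.3%, against 22.1% of all genes). The fit with the Y-linked covariate called 0 (0.0254% of all genes). Leaving out 1 library gave 0 to 8, where 2.82% to 19.8% of all genes were called. In Smarca1 KO against WT, with 0 called, DESeq2 called 4, the fit without the libraries highest in meninges markers 4, and leaving out 1 library gave 0 to 1. Of the transcripts, with 0 called in each comparison, DESeq2 called 7 in DKO against WT and 4 in Smarca1 KO against WT, and leaving out 1 library gave 0 to 1 in DKO against WT (Nnat-205, without Smarca1 KO replicate 3). Fits without a library have fewer samples, and the cause of the other changes was not tested.

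The replicate numbers in the titles were not shown to pair libraries. Deviations from the group means correlated at 0.35, −0.035 and 0.106 between same-numbered DKO and Smarca1 KO libraries, −0.027, −0.063 and −0.032 between DKO and WT and −0.039, 0.025 and 0.033 between Smarca1 KO and WT. Replicate 1 and no other number correlated best with its own in the first pair of groups. With the replicate block, 1, 5 and 0 imprinted genes were called for DKO against Smarca1 KO, then DKO against WT, then Smarca1 KO against WT. These are 3.03%, 15.2% and 0%, against 3.35%, 11.1% and 0.184% of all genes. In DKO against WT 2 were up and 3 down, where Ndn (adjusted p = 0.0685) and Zrsr1 (0.052) lost the call and Cdkn1c (0.0428) gained it. Depth limits the genes near or under 1 CPM (Kcnq1, Calcr, Slc22a18 and Phlda2).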
